A study of Mus musculus with 26 samples.

Results

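The cell cycle and DNA replication genes described here are 54 mouse genes out of 19638 genes listed in at least 1 of 26 liver RNA-seq libraries. They were chosen by name and sorted by role: 11 G1/S cyclins, cyclin-dependent kinases (CDKs) and E2F factors, 17 genes of replication licensing, the replisome and nucleotide supply, and 26 genes of G2 and mitosis. All 54 were listed in the libraries.

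The tissue came from mice labelled C57BL/6, in 8 groups. Alb-Cre:Hdac3-/- livers, in which the albumin promoter directs deletion of the histone deacetylase gene Hdac3 to hepatocytes, were taken at age 2 to 3 months, 0 days (0d, n = 3), 7 days (7d, n = 4), 21 days (21d, n = 4) and 50 days (50d, n = 3) after sPH. The abbreviation sPH stands for successive PH, and PH is the usual short form of partial hepatectomy. Wild-type livers (WT, n = 3) were of the same age. It is not stated in the labels if WT animals were operated on, or where 0d lies relative to the operations. Older tissue comprised liver tumors of Fah-/- recipient mice at 12 months (n = 3), spontaneous liver tumors of Alb-Cre:Hdac3-/- mice at 10 months (n = 3), and adjacent tissue without tumor from Alb-Cre:Hdac3-/- mice at 10 months (n = 3). What cells the Fah-/- recipients received is not stated in the labels. The adjacent tissue comes from mice of the Alb-Cre:Hdac3-/- genotype too, so the older groups hold no liver of wild-type mice. Deletion of Hdac3 in the adjacent tissue itself was not checked.

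A resting hepatocyte that enters the cycle makes D-type cyclins, which with CDK4 and CDK6 phosphorylate the pocket proteins and release E2F factors. E2F targets load the MCM helicase onto DNA and supply deoxynucleotides for S phase. Genes of G2 and mitosis are then switched on through the MuvB complex with B-MYB and FOXM1, which acts at CHR elements. CCAAT boxes often accompany CHR elements in the promoters of these genes. In the resting cell MuvB is part of the DREAM complex that keeps both waves off.

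Library totals ran from 8602526 to 11094627 expected counts, with 15369 to 16373 genes listed per library. Hdac3 had 43.7, 43.8 and 49.6 CPM (counts scaled to library size with TMM factors over all libraries) in 0d livers, against 36.5, 33.6 and 31.5 CPM in WT livers. Whole-gene counts include reads from exons that remain after deletion, so these values do not check the genotype. Fah averaged 384 ± 109 CPM in tumors of Fah-/- recipients, 367 ± 103 CPM in Hdac3-/- tumors and 1002 ± 128 CPM in adjacent tissue (SD, n = 3 each). Y-linked transcripts summed to 40.9 to 93.0 CPM in the 11 libraries of 7d, 21d and 50d, against at most 0.268 CPM in 0d livers and at most 0.121 CPM in WT livers. The share of Hbb-bs and Hbb-bt in adult beta-globin transcripts was 0 to 2.8% in 10 of these 11 libraries and 48.1% in the other one, against 52.7 to 99.6% in 0d livers and 99.6 to 100% in WT livers. It was at most 1.2% in all tumor and adjacent libraries, so the libraries differ in globin haplotype although the strain label is the same. Sex-linked transcripts, globin haplotype and day therefore cannot be told apart in any comparison of a later day with 0d. Within the older groups, Hdac3-/- tumor 3 and adjacent 2 also held Y-linked transcripts. Separate animals are not stated for replicates. These transcripts show more than 1 animal within 0d, 7d, Hdac3-/- tumors and adjacent tissue, and every pair of replicates differed beyond counting noise (chi-square per degree of freedom 7.67 or more). In the other groups p-values measure only the spread between these libraries, which may be technical.

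Motifs of both waves were looked for in the members' promoters. RefSeq promoters (GRCm38.p6, 250 bases before to 50 bases after the gene start) were matched for 43 of the 54 members and searched on both strands for E2F motifs (GCGGGAA or GCGCCAA), CHR motifs (TTTGAA or TTCGAA) and the CCAAT box. A GCGCCAA followed by T overlaps a CCAAT. E2F motifs stood in 4 of 8 G1/S promoters (50.0%), 8 of 14 replication promoters (57.1%) and 3 of 21 mitotic promoters (14.3%), against 6.9% of 27025 promoters in all. A CHR motif stood in 15 of 21 mitotic promoters (71.4%), 2 of 14 replication promoters (14.3%) and 1 of 8 G1/S promoters (12.5%), against 19.4% of all promoters. The same 15 mitotic promoters also held a CCAAT box, a pairing found in 7.7% of all promoters. These are letter matches, not measured binding sites.

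Shown here are the 200 bases before the start of 5 members on which the expression results below turn, each 5′ to 3′ on the gene's own strand, with the motifs in capitals (a motif on the opposite strand is printed as its reverse complement). The upstream stretches of Cdc20, the activator of the anaphase-promoting complex (chr4:118437344-118437543, minus strand), and Cdk1, the kinase that drives entry into mitosis (chr10:69352913-69353112, minus strand), hold CHR motifs with CCAAT boxes, and that of Cdk1 an E2F motif too. Those of Mcm6, a subunit of the replicative helicase (chr1:128359706-128359905, minus strand), and E2f7, a repressor of E2F targets (chr10:110745239-110745438, plus strand), hold E2F motifs. That of Mcm10, a replication initiation factor (chr2:5012792-5012991, minus strand), holds CCAAT boxes and neither of the other motifs in this stretch.
Cdc20: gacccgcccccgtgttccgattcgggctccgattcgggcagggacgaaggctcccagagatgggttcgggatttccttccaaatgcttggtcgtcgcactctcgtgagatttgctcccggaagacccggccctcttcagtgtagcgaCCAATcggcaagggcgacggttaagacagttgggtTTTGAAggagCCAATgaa
Cdk1: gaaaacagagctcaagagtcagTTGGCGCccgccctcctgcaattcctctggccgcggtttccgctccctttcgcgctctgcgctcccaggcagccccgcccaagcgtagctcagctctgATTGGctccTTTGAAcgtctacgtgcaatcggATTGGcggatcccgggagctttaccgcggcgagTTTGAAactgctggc
Mcm6: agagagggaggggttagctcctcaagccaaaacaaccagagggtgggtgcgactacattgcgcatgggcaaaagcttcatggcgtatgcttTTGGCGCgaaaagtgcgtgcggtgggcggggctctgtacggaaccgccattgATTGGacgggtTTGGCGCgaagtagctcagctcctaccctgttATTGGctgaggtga
E2f7: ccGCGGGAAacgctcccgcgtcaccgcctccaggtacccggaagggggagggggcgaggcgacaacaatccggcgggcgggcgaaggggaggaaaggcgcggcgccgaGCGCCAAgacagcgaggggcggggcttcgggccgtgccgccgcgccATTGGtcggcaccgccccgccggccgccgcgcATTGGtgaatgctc
Mcm10: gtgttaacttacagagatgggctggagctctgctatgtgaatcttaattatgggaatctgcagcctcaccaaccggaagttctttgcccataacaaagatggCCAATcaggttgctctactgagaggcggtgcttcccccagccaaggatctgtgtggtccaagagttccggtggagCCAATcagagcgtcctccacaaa

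Levels between genes were compared on the authors' FPKM scale, which divides by gene length. Cdk4, the partner kinase of D-type cyclins, had the highest mean level of the 54 in each of the 8 groups. Its level was 38.3 ± 2.84 FPKM in 0d livers and 23.2 ± 2.21 FPKM in WT livers (SD, n = 3 each). Among the older tissues Cdk4 stood at 52.0 ± 13.1 FPKM in tumors of Fah-/- recipients, 41.7 ± 21.6 FPKM in Hdac3-/- tumors and 29.3 ± 4.98 FPKM in adjacent tissue. Pcna, the sliding clamp of DNA polymerase, came second in every group except adjacent tissue, where Ccnd1, Mcm10 and the salvage enzyme Tk1 also stood above it. A mean below 1 FPKM was found for 10 of the 54 members in 0d livers and for 24 in WT livers. In the older tissues 9 members lay below 1 FPKM in tumors of Fah-/- recipients, 15 in Hdac3-/- tumors and 35 in adjacent tissue.

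**Figure D1:**
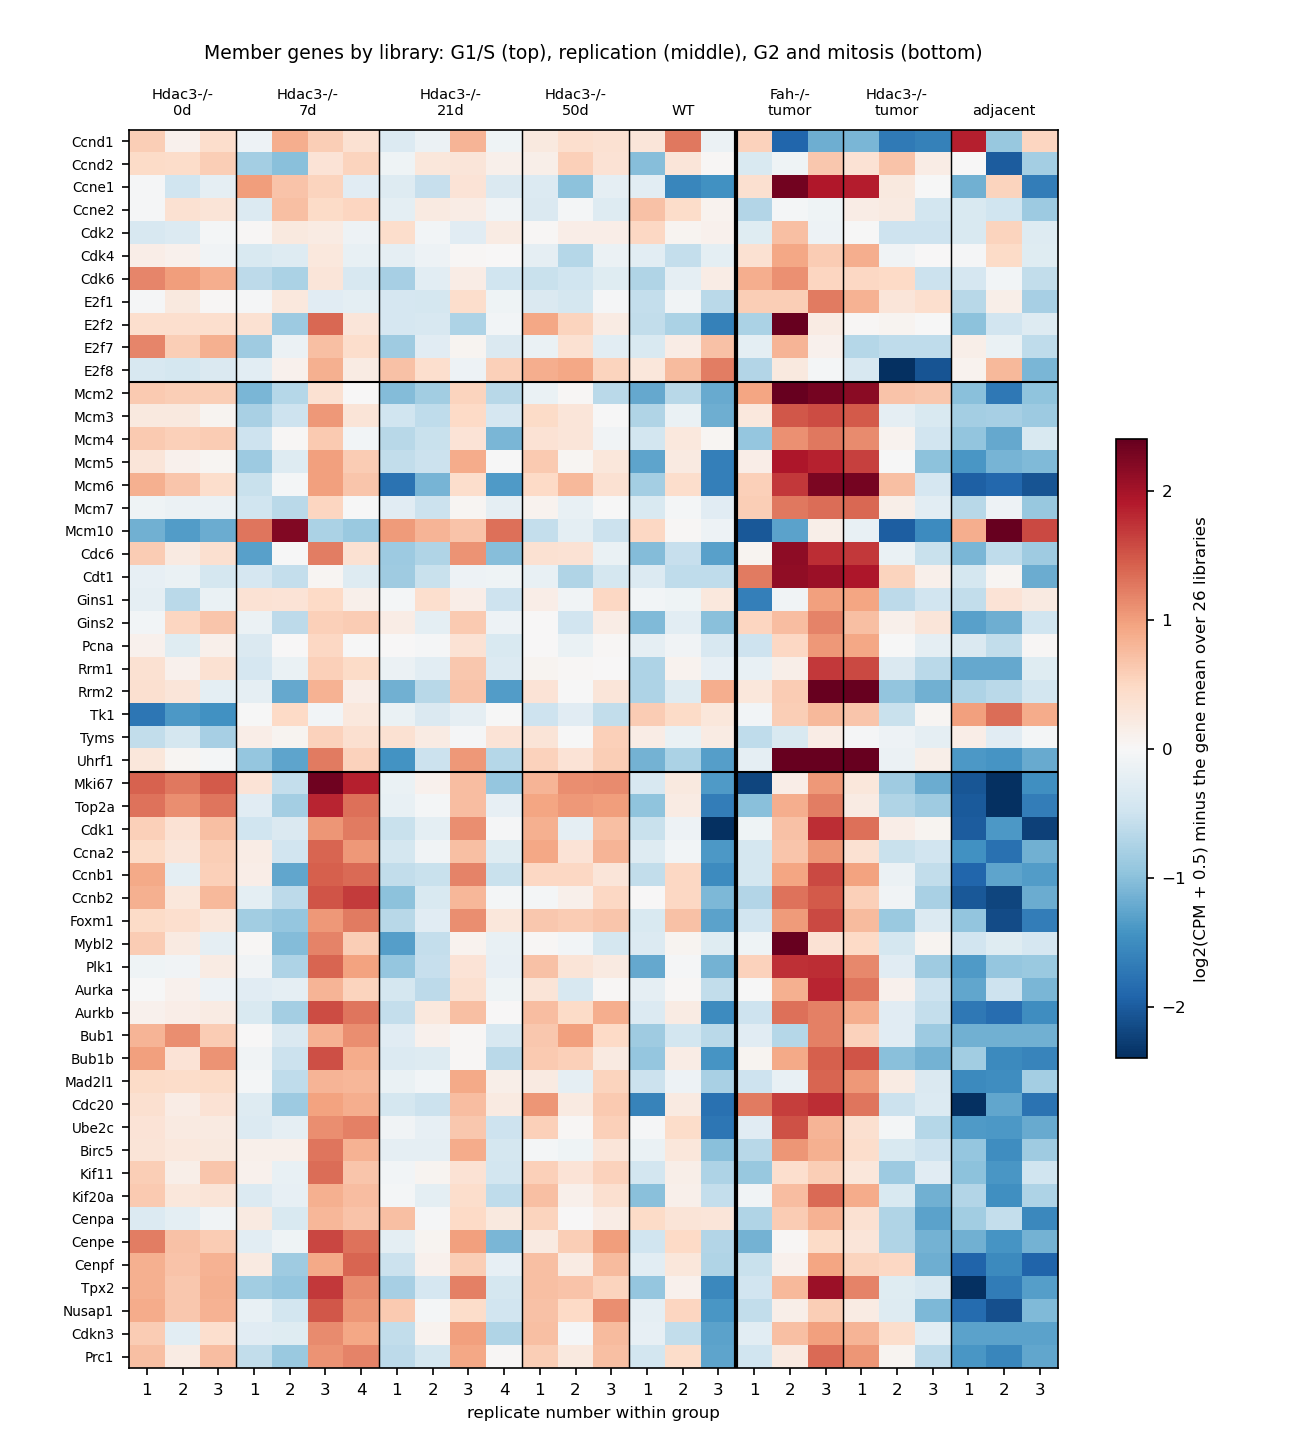
Each row is 1 of the 54 members and each column 1 of the 26 libraries, grouped and numbered by replicate. Colour gives log2(CPM + 0.5) minus the gene's mean over all libraries. The mean over the mitotic rows at the bottom is lowest in the 3 adjacent libraries, and single libraries within 7d, 21d, WT and both tumor groups stand apart from their group across most rows.

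In 0d livers against WT livers, most mitotic members lay above WT, while the enzymes of thymidylate supply lay below it. Of the 54 members 8 rose and 3 fell in 0d livers (20.4%), against 37.2% of the 13617 genes tested that were called in either direction, so the members were not called more often than other genes. Calls rest on the quasi-likelihood test of edgeR at a Benjamini-Hochberg adjusted p of 0.05 over all genes tested. The median log2 fold change of the members was 0.87, against 0.0033 for all genes, and 45 of 54 members lay above 0, against 50.2% of all genes. No overlap between the 3 libraries of each group was seen for 24 members higher and 7 lower in 0d livers, against 28.5% and 28.1% of all genes. By role, 2 of 11 G1/S members rose and 1 fell (median log2 fold change 0.54), 2 of 17 replication members rose and 2 fell (0.55), and 4 of 26 mitotic members rose and none fell (0.98). Scaling by library totals gave 12 higher and 2 lower.

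Among the G1/S members, Cdk6 and E2f2 rose and E2f8 fell. Cdk6, a kinase partner of D-type cyclins, had 5.17, 4.52 and 4.10 CPM in 0d livers, against 1.02, 1.66 and 2.32 CPM in WT livers. The groups did not overlap, and the log2 fold change was 1.46 ± 0.39 (SE, adjusted p = 0.00829). E2f2, an activator of replication genes, had 3.65, 3.65 and 3.67 CPM in 0d livers, against 1.59, 1.35 and 0.527 CPM in WT livers (log2 fold change 1.66 ± 0.51, adjusted p = 0.0181). E2f8, a repressor of E2F targets, had 4.15, 4.0 and 4.27 CPM in 0d livers, against 6.81, 9.76 and 13.6 CPM in WT livers (log2 fold change -1.27 ± 0.31, adjusted p = 0.00454). All WT libraries of E2f8 lay above all 0d libraries. Ccnd1, cyclin D1, had 68.1, 48.0 and 60.1 CPM in 0d livers, against 54.6, 109 and 40.8 CPM in WT livers, which overlapped (log2 fold change -0.21 ± 0.35, adjusted p = 0.661). Ccne1, the cyclin partner of CDK2, was not called at 0.92 ± 0.46 (adjusted p = 0.128).

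Of the replication members, Mcm2 and Gins2 rose and Tk1 and Tyms fell. Mcm2, a subunit of the replicative helicase, had 15.3, 14.9 and 14.9 CPM in 0d livers, against 3.86, 5.92 and 3.90 CPM in WT livers. The 0d libraries lay close together and far above each WT library (log2 fold change 1.72 ± 0.43, adjusted p = 0.0056). Tk1, which salvages thymidine, had 3.73, 4.95 and 4.61 CPM in 0d livers, against 21.1, 18.8 and 16.5 CPM in WT livers (log2 fold change -2.08 ± 0.19, adjusted p = 6.02e-06). Tyms, which makes thymidylate, had 23.0, 25.8 and 19.9 CPM in 0d livers, against 39.6, 31.3 and 39.9 CPM in WT livers (log2 fold change -0.69 ± 0.18, adjusted p = 0.00815). Neither pair of groups overlapped, but Tyms was not called when libraries were scaled by their totals (log2 fold change -0.38, adjusted p = 0.18, the highest over its alternatives, from 0.00319). Gins2, a subunit of the GINS complex of the replication fork, was called at 1.47 ± 0.46 (adjusted p = 0.0206), and Pcna was not, at 0.23 ± 0.21 (adjusted p = 0.403). Gins2 shares 2758 exonic bases with Gse1 on the other strand, and the sources used here do not give strand use in counting. Gse1, looked up after its neighbour was called, had a log2 fold change of 1.67 ± 0.27 (adjusted p = 0.000357), so reads of the pair cannot be told apart.

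The mitotic members called were Bub1, Top2a, Mki67 and Bub1b. Bub1, a spindle checkpoint kinase, had 1.44, 1.91 and 1.20 CPM in 0d livers, against 0.113, 0.312 and 0.211 CPM in WT livers (log2 fold change 2.76 ± 0.61, adjusted p = 0.00263). Mki67, the usual marker of cycling cells, had 15.9, 14.4 and 16.7 CPM in 0d livers, against 4.2, 6.75 and 1.90 CPM in WT livers (log2 fold change 1.87 ± 0.63, adjusted p = 0.0308). Top2a, which untangles sister DNA, had 13.3, 11.6 and 13.1 CPM in 0d livers, against 2.38, 5.92 and 1.27 CPM in WT livers (log2 fold change 1.98 ± 0.61, adjusted p = 0.02). In each of the 3 genes the lowest 0d library lay above the highest WT library, and WT replicate 2 was the highest of the WT livers. Bub1 was near the floor in WT livers, which could not pass the filter on low counts for it. Other young groups, 0d among them, kept Bub1 in the test, so its call adds little beyond these values. Bub1b, its checkpoint relative, was called at 1.73 ± 0.58 (adjusted p = 0.0287). Cdk1 was not called, with 6.02, 5.04 and 6.66 CPM in 0d livers, against 2.5, 3.53 and 0.316 CPM in WT livers (log2 fold change 1.48 ± 0.67, adjusted p = 0.0906). Ccnb1, the mitotic cyclin B1, had a log2 fold change of 0.96 ± 0.78 (adjusted p = 0.35).

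**Figure D2:**
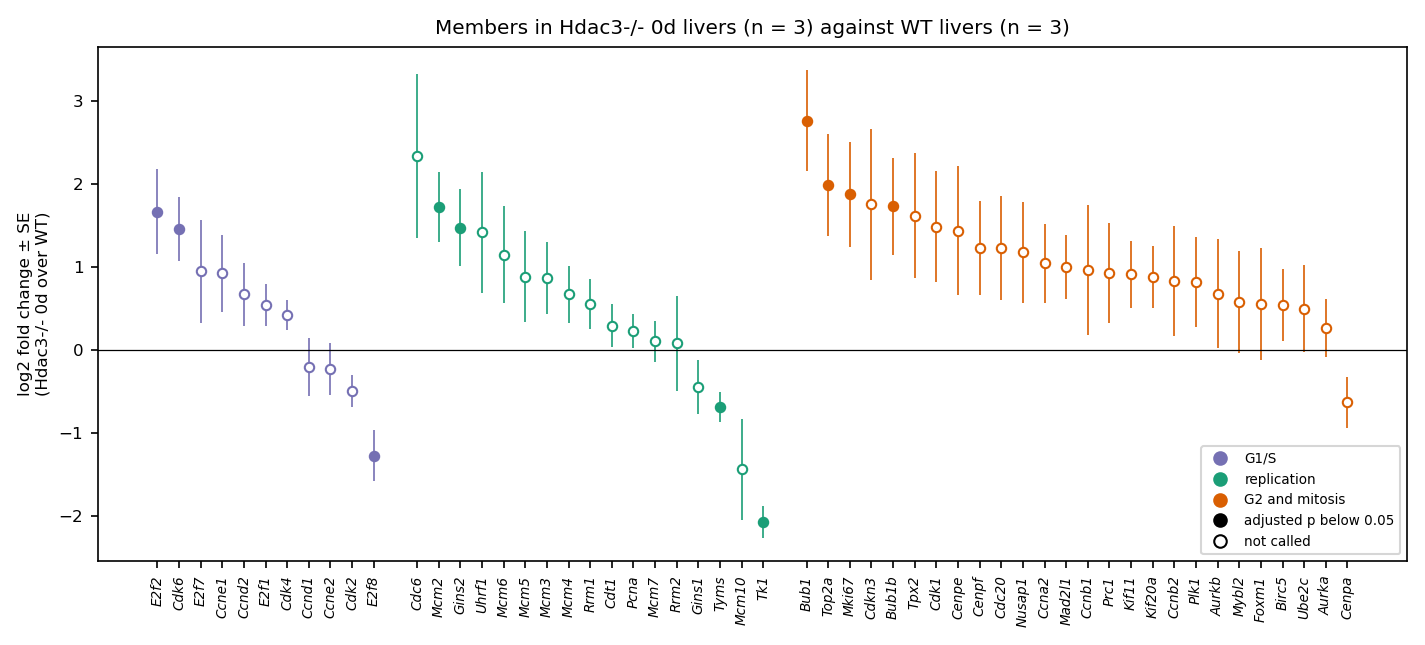
Points are log2 fold changes of the members in 0d livers over WT livers with SE bars, coloured by role, and filled where the adjusted p was below 0.05. Of the 26 mitotic members 25 lie above 0, while Tk1 lies lowest at -2.08.

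Of the 11 calls, 6 held when each library was left out in turn (Bub1, Cdk6, E2f8, Mcm2, Tk1 and Tyms), and 6 to 19 members were called. With all 26 libraries in 1 fit the calls of E2f2, E2f8, Mki67 and Bub1b were lost (adjusted p from 0.0695 to 0.0915). Of the counts with 1 library left out, the lowest came without WT replicate 3 and the highest without WT replicate 2, the library with the highest value of 24 of 26 mitotic members among WT livers. Gins2, Mki67, Top2a and Bub1b lost the call without WT replicate 1 or without WT replicate 3, with adjusted p from 0.0703 to 0.111, and E2f2 without WT replicate 3 (adjusted p = 0.0789). The 0d libraries each decided calls too: Mki67 was lost without any 1 of the 3, Bub1b without 0d replicate 1 or 3, and Gins2 without 0d replicate 2 or 3 (adjusted p from 0.0553 to 0.0837). Cell type markers moved with this comparison. Hepatocyte markers summed to 38380 to 47580 CPM in 0d livers and to 154100 to 168600 CPM in WT livers, with 9 of 10 markers lower in 0d livers. Bile duct and progenitor markers summed to 460 to 739 CPM in 0d livers and 39.9 to 64.5 CPM in WT livers, with 7 of 7 tested higher. Stellate and fibroblast markers summed to 684 to 1105 CPM in 0d livers and 302 to 316 CPM in WT livers (5 of 8 higher), and 4 of 8 macrophage markers were higher. The part of these markers in the members' differences was not tested, and in whole tissue fewer cells of a type and less RNA per cell cannot be told apart.

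After sPH, the comparisons of 7d, 21d and 50d with 0d share the same 3 libraries of 0d. The comparison of 0d with WT uses these libraries too. A high or low value in them therefore shows in both kinds of comparison, in opposite directions. Against 0d livers Tk1 and Tyms rose and Cdk6 fell at each day, and mitotic members were hardly called. At 7d, 3 of 54 members rose and 1 fell (7.41%), against 26.4% of all genes called. At 21d, 4 rose and 4 fell (14.8%), against 31.4%. At 50d, 3 rose and 1 fell (7.41%), against 25.6%. The members' median log2 fold change was 0.06 at 7d, -0.31 at 21d and -0.06 at 50d, while that of all genes lay between 0.01 and 0.04. Of the 26 mitotic members none was called at 7d or at 50d and 1 fell at 21d, when 2 of 26 lay above 0 and their median was -0.48.

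Tk1 had 13.4, 19.2, 12.9 and 16.2 CPM in 7d livers, 12.1, 10.6, 11.6 and 13.4 CPM in 21d livers and 9.54, 11.1 and 8.81 CPM in 50d livers, against 3.73, 4.95 and 4.61 CPM in 0d livers. All 11 later libraries lay above the 0d libraries, and the log2 fold changes were 1.79 ± 0.18 at 7d (adjusted p = 3.1e-05), 1.42 ± 0.18 at 21d (0.00017) and 1.14 ± 0.19 at 50d (0.000707). Tyms rose by 0.91 ± 0.17 at 7d (adjusted p = 0.00206), 0.83 ± 0.17 at 21d (0.00244) and 0.92 ± 0.18 at 50d (0.00226) on the log2 scale. Its 11 later libraries, at 34.4 to 52.2 CPM, also lay above the 0d libraries at 19.9 to 25.8 CPM. Cdk6 had 1.12, 0.979, 2.57 and 1.43 CPM in 7d livers, 0.939, 1.60, 2.33 and 1.30 CPM in 21d livers and 1.23, 1.29 and 1.56 CPM in 50d livers, against 5.17, 4.52 and 4.10 CPM in 0d livers. It was lower in every later library, with log2 fold changes of -1.58 ± 0.36 at 7d (adjusted p = 0.00547), -1.57 ± 0.36 at 21d (0.00422) and -1.76 ± 0.39 at 50d (0.00481). These 9 calls held when each library was left out in turn.

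Tk1 overlaps Afmid, a tryptophan pathway gene on the other strand, over 83 exonic bases. Afmid, looked up after the values of Tk1 were seen, had a log2 fold change of -2.86 ± 0.43 in 0d livers over WT livers (adjusted p = 0.000239). Over 0d livers it was 2.14 ± 0.41 at 7d (adjusted p = 0.00221), 2.17 ± 0.41 at 21d (0.00144) and 1.78 ± 0.42 at 50d (0.00658). Afmid stood at 20.1, 26.4 and 24.9 CPM in 0d livers, against 185, 185 and 150 CPM in WT livers. Without strand, reads in the shared bases cannot be assigned to one of the 2 genes, so the values of Tk1 are uncertain by that share. Tyms has a pseudogene in the annotation, which could share its reads. Other members described here also share exonic bases with a gene on the other strand and are uncertain likewise: Prc1 (911 bases with Rccd1), Ube2c (592 with Tnnc2), Ccna2 (510 with Exosc9), E2f8 (610 with Gm2788), Cdk6 (368 with Gm17590), Plk1 (156 with Gm44985), E2f7 (86 with 1700020G17Rik), Cdc20 (53 with Elovl1), Ccnd1 (1100 with LTO1), Cdk4 (641 with Tspan31) and Mcm7 (321 with Ap4m1).

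Mcm10 and E2f8 also lay above 0d livers, and each was called at 2 of the 3 days. Mcm10 had 40.9, 78.5, 9.62 and 8.66 CPM in 7d livers, 33.9, 29.5, 26.9 and 42.1 CPM in 21d livers and 11, 13.9 and 11.4 CPM in 50d livers, against 7.20, 6.26 and 6.92 CPM in 0d livers. In 7d livers replicates 1 and 2 were far above replicates 3 and 4, though none overlapped 0d. Mcm10 was called at 7d (log2 fold change 2.33 ± 0.59, adjusted p = 0.0115) and 21d (2.28 ± 0.59, 0.0103), and not at 50d (0.83 ± 0.61, 0.338). E2f8 had 4.58, 6.00, 10.5 and 6.48 CPM in 7d livers, 9.39, 7.49, 5.09 and 8.52 CPM in 21d livers and 10.6, 11 and 8.29 CPM in 50d livers, against 4.15, 4.0 and 4.27 CPM in 0d livers. It was called at 21d (0.87 ± 0.29, adjusted p = 0.0319) and 50d (1.26 ± 0.31, 0.00761), and over all alternatives its adjusted p was 0.0122 to 0.21 at 21d and 0.000328 to 0.101 at 50d. That of Mcm10 was 0.000167 to 0.0746 at 7d, where it was lost with only the groups compared, and 5.92e-05 to 0.0402 at 21d. Whether the days differ from each other in these genes is given with the comparisons of days below.

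At 21d 3 further members fell. E2f7 had 0.104, 0.399, 0.636 and 0.355 CPM in 21d livers, against 1.95, 1.13 and 1.45 CPM in 0d livers (log2 fold change -1.98 ± 0.62, adjusted p = 0.0235). Mcm4, another helicase subunit, had 3.23, 3.59, 6.89 and 2.25 CPM in 21d livers, against 8.65, 8.25 and 8.46 CPM in 0d livers (-1.08 ± 0.32, 0.0194). Bub1 had 0.417, 0.699, 0.636 and 0.355 CPM in 21d livers, against 1.44, 1.91 and 1.20 CPM in 0d livers (-1.50 ± 0.48, 0.0277). E2f7 and Bub1 were near the floor in 21d livers, and other young groups, 0d among them, kept both in the test. The groups of all 3 genes were apart, yet each of these calls and that of E2f8 was lost when certain single libraries were left out, and 4 to 14 members were called. Without 0d replicate 1, 2 or 3, or 21d replicate 1 or 4, 4 or 5 members were called, and without 21d replicate 3, the library highest for 42 of 54 members in its group, 14.

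The other members named throughout were not called at any day. Mki67 had log2 fold changes of 0.03 ± 0.55 at 7d (adjusted p = 0.98), -1.41 ± 0.56 at 21d (0.0687) and -0.38 ± 0.59 at 50d (0.67). For Mcm2 they were -0.89 ± 0.38 (0.0921), -1.01 ± 0.38 (0.0522) and -0.88 ± 0.41 (0.12), in the same order of days. Mcm2 stayed below the 0d libraries in all 11 later libraries, at 4.27 to 14.3 CPM. Cdk1 gave 0.03 ± 0.58 (0.978), -0.36 ± 0.58 (0.663) and -0.03 ± 0.62 (0.978), and Ccnb1 0.33 ± 0.69 (0.758), -0.45 ± 0.70 (0.652) and -0.08 ± 0.74 (0.953). Pcna gave 0.07 ± 0.19 (0.814), 0.02 ± 0.19 (0.959) and -0.04 ± 0.21 (0.907). Ccnd1 gave 0.08 ± 0.32 (0.881), -0.25 ± 0.32 (0.573) and -0.05 ± 0.35 (0.926), and Ccne1 0.88 ± 0.40 (0.117), 0.05 ± 0.41 (0.937) and -0.30 ± 0.44 (0.652). The SE of the 3 mitotic genes among these, at 0.55 to 0.74, was larger than that of Pcna or Ccnd1, so a change of a given size was harder to call in them.

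**Figure D3:**
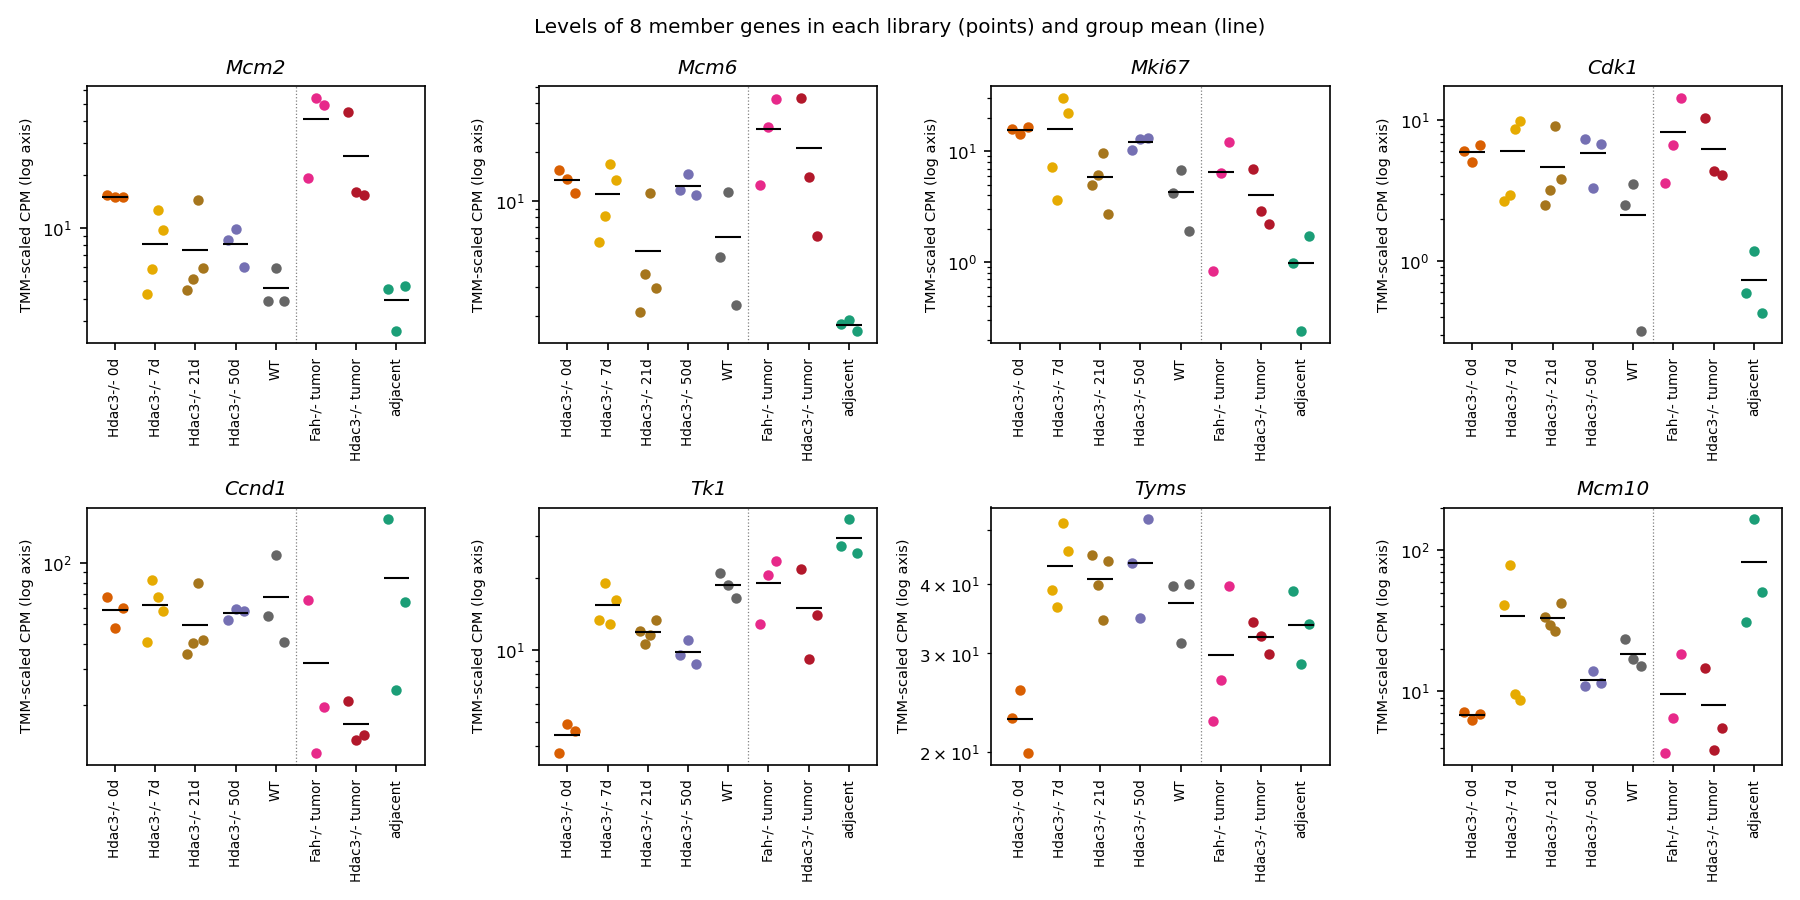
Each panel gives 1 member, with points for the libraries and a line for the group mean, on a log axis of CPM. Tk1 lies lowest in 0d livers, and Mcm2 lies higher in both tumor groups than in adjacent tissue. The 7d points of Mki67 and Mcm10 each fall into a high and a low pair. The replicates high for Mki67 are low for Mcm10.

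The 4 libraries of 7d were not alike. Mki67 had 7.22, 3.67, 30.5 and 22.0 CPM in replicates 1 to 4 of 7d, and all 26 mitotic members were higher in both replicates 3 and 4 than in replicates 1 and 2. Over the 54 members this held for 43 (79.6%), against 31.2% of all genes tested. The pairs were chosen with these data known, so these shares describe the split and do not test it. Mitotic members summed to 76.1, 56.7, 235 and 199 CPM in these 4 libraries. Mcm10 went the other way, with replicates 1 and 2 above replicates 3 and 4. Neutrophil markers summed to 279, 120, 2115 and 354 CPM, macrophage markers to 1138, 788, 2235 and 1007 CPM, and hepatocyte markers to 82110, 130000, 32710 and 38910 CPM. All 9 neutrophil markers tested were higher in 7d livers than in 0d livers, where they summed to 40.0 to 74.5 CPM. Hepatocyte markers were higher in 5, 6 and 5 of 10 at 7d, 21d and 50d than in 0d livers. Stellate and fibroblast markers were lower in 2, 4 and 1 of 8, and bile duct and progenitor markers in 3, 4 and 1 of 7, in the same order of days. The part of these cells in the members' levels was not tested.

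Between the later days no member was called. With edgeR's quasi-likelihood test this was so at 21d against 7d, where 0% of all genes were called, and at 50d against 7d and 50d against 21d, where 0.419% were called in each. At an unadjusted p under 0.05 the counts were 9, 4 and 4 of 54 members, against 7.67%, 9.71% and 11.9% of all genes, and DESeq2 called 0, 1 and 0 members. The mitotic members had a median log2 fold change of -0.67 at 21d against 7d, with 0 of 26 above 0, and of 0.56 at 50d against 21d, with 23 of 26 above 0. At 50d against 7d the median was -0.11, with 7 of 26 above 0. Mki67 gave -1.43 ± 0.54 at 21d against 7d (adjusted p = 0.573), -0.41 ± 0.56 at 50d against 7d (0.889) and 1.03 ± 0.57 at 50d against 21d (0.503). Mcm10, with -0.05 ± 0.50 (0.99), -1.50 ± 0.57 (0.37) and -1.45 ± 0.57 (0.326), and Tk1, with -0.38 ± 0.15 (0.612), -0.65 ± 0.17 (0.112) and -0.27 ± 0.17 (0.554), were likewise not called.

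In older tissue, both kinds of tumor held more transcripts of helicase and mitotic members such as Mcm2, Mcm6, Cdk1 and Cdc20 than adjacent tissue did, and fewer of Mcm10. The 2 tumor groups share the 3 adjacent libraries. Tumors of Fah-/- recipients also differ from adjacent tissue in the genotype and age of the mice. Tumor state, genotype and age therefore cannot be told apart in that comparison. The sample titles do not give whether Hdac3-/- tumors and adjacent tissue come from the same animals. In tumors of Fah-/- recipients 26 of 51 members tested rose and 1 fell, against 15.1% of all 13187 genes called. In Hdac3-/- tumors 8 of 51 rose and 1 fell, against 10.2%. The median log2 fold change of the members tested was 2.30 in tumors of Fah-/- recipients and 1.57 in Hdac3-/- tumors, against 0.04 and 0.02 for all genes. No overlap with the 3 adjacent libraries was seen for 35 members higher and 2 lower in tumors of Fah-/- recipients, against 16.4% and 17.1% of all genes, and for 29 higher and 4 lower in Hdac3-/- tumors, against 20.1% and 19.1%. By role, tumors of Fah-/- recipients had 16 of 24 mitotic, 9 of 17 replication and 1 of 10 G1/S members higher, and Hdac3-/- tumors 5 of 24, 3 of 17 and 0 of 10. All 24 mitotic members tested had fold changes above 0 in both, a sign that the filter on low counts partly fixes where adjacent values are near 0. Of the 54, Bub1, Cenpe and E2f7 had too few counts in older tissue to be tested, and a member kept only through its tumor values had to lie higher there.

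Mcm2 had 19.1, 54.3 and 49.4 CPM in tumors of Fah-/- recipients and 45.3, 15.9 and 15.4 CPM in Hdac3-/- tumors, against 4.55, 2.61 and 4.69 CPM in adjacent tissue. Every tumor library lay above every adjacent library, and the log2 fold changes were 3.36 ± 0.57 in tumors of Fah-/- recipients (adjusted p = 0.00701) and 2.68 ± 0.56 in Hdac3-/- tumors (0.0192). Mcm6, with E2F motifs in the promoter printed above, had 12.6, 28.3 and 42.1 CPM in tumors of Fah-/- recipients and 43.0, 14.1 and 6.16 CPM in Hdac3-/- tumors, against 1.78, 1.89 and 1.60 CPM in adjacent tissue. Its groups were apart as well, with log2 fold changes of 3.96 ± 0.75 (adjusted p = 0.0109) and 3.58 ± 0.74 (0.0193), in the same order of tumors. Gins2 was called in both, at 2.30 ± 0.50 (0.0164) and 1.78 ± 0.49 (0.0496), while its neighbour Gse1 was at 0.92 ± 0.49 (0.22) and 0.93 ± 0.49 (0.247).

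In tumors of Fah-/- recipients the licensing factors Cdt1 (log2 fold change 2.42 ± 0.56, adjusted p = 0.0206) and Cdc6 (3.53 ± 0.98, 0.0397) and the helicase subunits Mcm3 (2.14 ± 0.56, 0.0325), Mcm5 (2.87 ± 0.73, 0.0294) and Mcm7 (1.66 ± 0.44, 0.0342) rose too. Uhrf1, which keeps DNA methylation through replication, rose by 3.97 ± 1.00 (0.029). The G1/S member called was E2f1, the leading activator of the family (1.29 ± 0.36, 0.0394). In tumors of Fah-/- recipients Uhrf1 had 2.82, 22.2 and 24.5 CPM, against 0.989, 0.947 and 1.17 CPM in adjacent tissue. These groups did not overlap. Adjacent values of Uhrf1 alone were too low for the filter on low counts. Tumor values kept Uhrf1 in the test, so a higher level there was partly fixed in advance.

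Mcm10 was the replication member called lower in both tumors. It had 3.66, 6.51 and 18.4 CPM in tumors of Fah-/- recipients and 14.6, 3.84 and 5.46 CPM in Hdac3-/- tumors, against 30.8, 166 and 50.6 CPM in adjacent tissue. The log2 fold changes were -3.10 ± 0.84 (adjusted p = 0.0375) and -3.36 ± 0.85 (0.0376), in the same order of tumors. Neither call held when libraries were scaled by their totals (adjusted p = 0.0646 and 0.0637) or with no filter on low counts (0.0683 and 0.07), and over all alternatives the adjusted p was 0.000575 to 0.148 and 0.000187 to 0.257. Adjacent replicate 2, one of the libraries whose removal ended both calls, was more than 3 times the next highest.

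Among mitotic members, Cdc20 had 9.62, 13.0 and 14.2 CPM in tumors of Fah-/- recipients and 9.97, 2.49 and 2.92 CPM in Hdac3-/- tumors, against 0.297, 1.30 and 0.746 CPM in adjacent tissue. It rose by 3.97 ± 0.68 (adjusted p = 0.00701) and 2.73 ± 0.66 (0.0316) on the log2 scale, in the same order of tumors. Cdk1 had 3.55, 6.63 and 14.4 CPM in tumors of Fah-/- recipients and 10.4, 4.36 and 4.07 CPM in Hdac3-/- tumors, against 0.594, 1.18 and 0.426 CPM in adjacent tissue (3.47 ± 0.68, 0.0118, and 3.09 ± 0.68, 0.0226). Neither gene overlapped between tumors and adjacent tissue. In both genes adjacent values alone were too low for the filter on low counts. Tumor values were needed to keep Cdc20 and Cdk1 in the test, so a higher level there was partly fixed in advance. Aurkb, the kinase of the chromosomal passenger complex, was called in both, at 3.70 ± 0.76 (0.014) and 2.85 ± 0.76 (0.0432).

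Some mitotic members were at or near 0 in adjacent tissue. Cdkn3, a phosphatase of CDKs, had no count in any adjacent library, and set against 3 counts over that group it was at least 12.7-fold higher in tumors of Fah-/- recipients and at least 10.6-fold higher in Hdac3-/- tumors. Cenpf, a kinetochore protein, had 1 count over the adjacent group, 62 over tumors of Fah-/- recipients and 50 over Hdac3-/- tumors. The ratios were 41.3 (95% counting interval 9.32 to 2161.1) for tumors of Fah-/- recipients and 35.0 (7.79 to 1829.7) for Hdac3-/- tumors. Both genes were kept for the test only through their tumor counts and are among the calls, so their calls add nothing beyond these counts. Bub1, with no count in adjacent tissue and no test, was at least 8.98-fold and at least 5.45-fold higher. Cenpe, a kinetochore motor also without a test, had 2 counts over the adjacent group and ratios of 11.3 (2.83 to 98.2) and 7.72 (1.83 to 68.9). The intervals cover counting error only.

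The remaining mitotic members called in tumors of Fah-/- recipients were Top2a, Ccna2, Ccnb1, Ccnb2, Foxm1, Plk1, Aurka, Ube2c, Birc5, Tpx2 and Prc1. Their log2 fold changes lay between 1.94 ± 0.56 for Birc5, an inhibitor of apoptosis with a mitotic role (adjusted p = 0.0448), and 3.78 ± 0.88 for Ccnb2, a B-type cyclin (0.021). Foxm1, the transcription factor of the mitotic wave, stood at 3.09 ± 0.81 (0.0322), and Plk1, the polo-like kinase, at 2.86 ± 0.64 (0.0183). Ccnb1 was called at 3.32 ± 0.78 (0.0225), and in Hdac3-/- tumors it was not, at 2.54 ± 0.78 (0.0684). Ccnb1 and Ccnb2 have pseudogenes in the annotation. All mitotic members together summed to 23.5 to 29.9 CPM in adjacent tissue. Any member called here, and Aurkb, had to lie higher in tumors if only tumor values kept it in the test. Such a call adds little beyond the levels.

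Mki67 had 0.836, 6.35 and 12.2 CPM in tumors of Fah-/- recipients and 6.94, 2.91 and 2.19 CPM in Hdac3-/- tumors, against 0.989, 0.237 and 1.71 CPM in adjacent tissue. Tumor 1 of Fah-/- recipients lay within the adjacent range, and Mki67 was not called in tumors of Fah-/- recipients (log2 fold change 2.70 ± 0.95, adjusted p = 0.0858) or in Hdac3-/- tumors (2.01 ± 0.95, 0.203). Ccnd1 had 65.8, 11.6 and 19.5 CPM in tumors of Fah-/- recipients and 20.8, 13.5 and 14.2 CPM in Hdac3-/- tumors, against 164, 23.7 and 64.2 CPM in adjacent tissue. Its log2 fold changes, -1.40 ± 0.76 (0.239) and -2.39 ± 0.79 (0.0862), were not called. Ccne1 gave 2.42 ± 0.85 (0.0843) and 1.61 ± 0.84 (0.247), Pcna 0.77 ± 0.43 (0.253) and 0.62 ± 0.43 (0.389), and Tk1 -0.63 ± 0.35 (0.244) and -0.97 ± 0.35 (0.108), each with tumors of Fah-/- recipients before Hdac3-/- tumors.

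**Figure D4:**
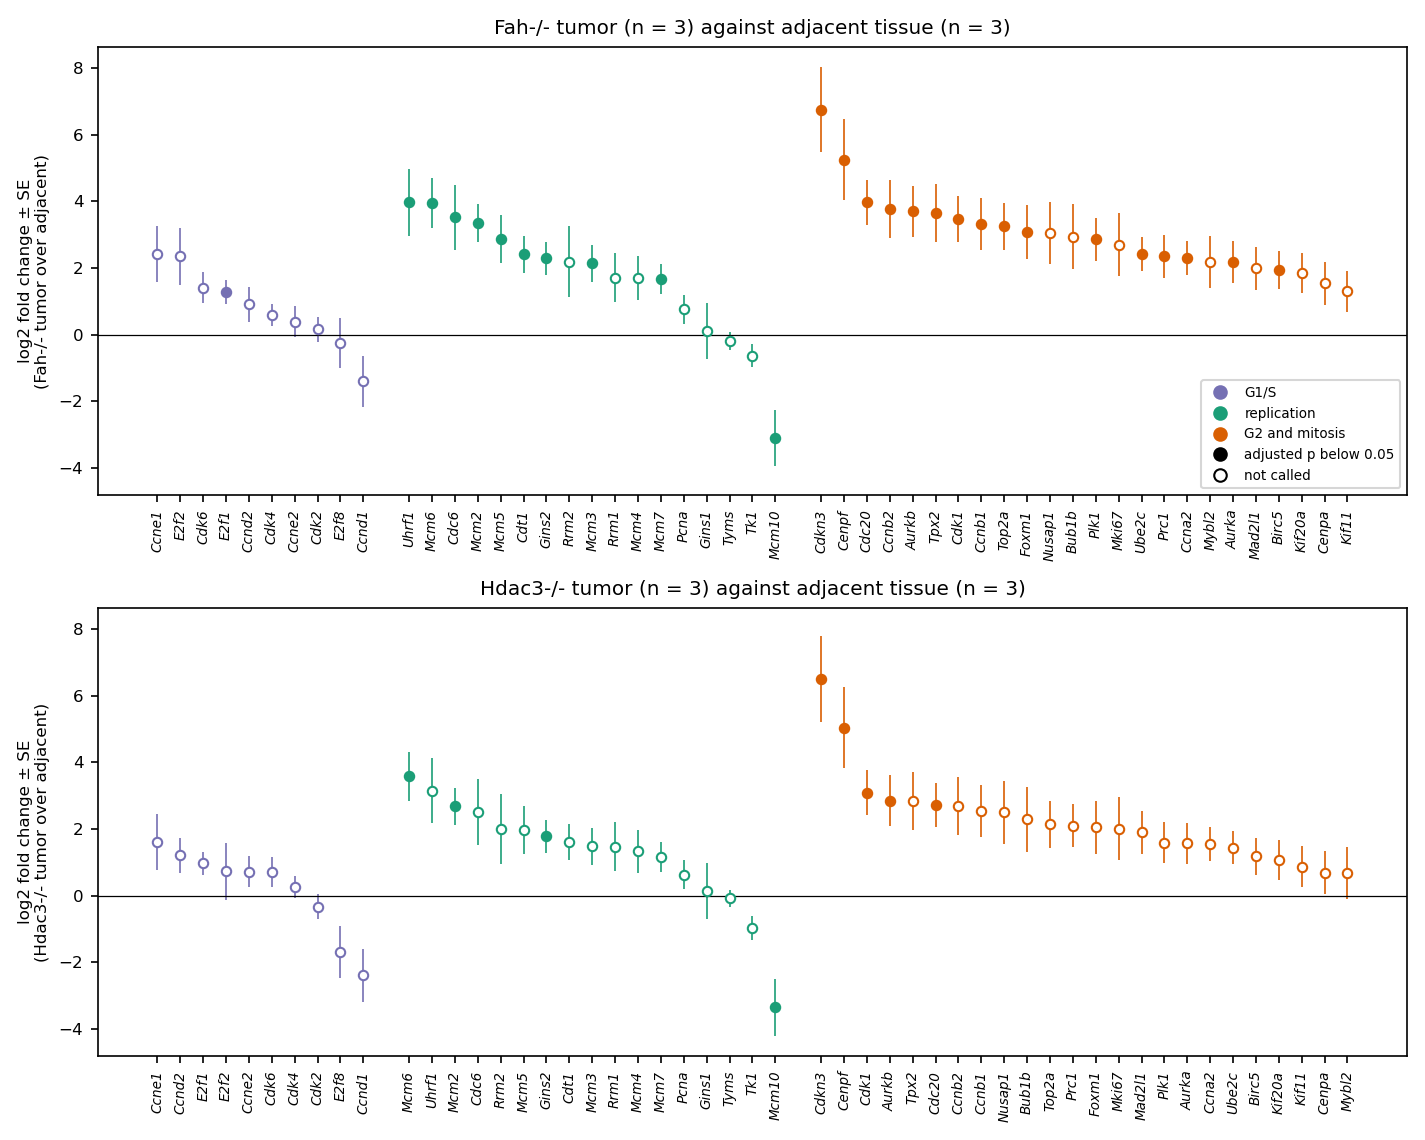
Log2 fold changes with SE of the members tested in tumors of Fah-/- recipients over adjacent tissue (top) and in Hdac3-/- tumors over adjacent tissue (bottom), coloured by role and filled where the adjusted p was below 0.05. In both panels all 24 mitotic members lie above 0 and Mcm10 lies at -3.10 and -3.36.

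These counts leaned on single libraries. In tumors of Fah-/- recipients 4 members were called without adjacent replicate 3, 8 without adjacent 2, 9 without adjacent 1, 15, 21 and 32 without tumor 3, 2 and 1, and Cdc20 and Mcm2 were called in all 6 cases. The share of all genes called fell too, to 5.2% without adjacent 3, 7.3% without adjacent 2 and 9.61% without adjacent 1, and was 13.0 to 14.1% without a tumor. In Hdac3-/- tumors the counts were 0 without adjacent 2 or adjacent 3, 1 without adjacent 1 or tumor 2, 2 without tumor 1 and 6 without tumor 3, and no member was called in all 6. The share of all genes called in these cases was 2.23 to 6.04%, against 10.2% with all libraries. Tumor 1 was the lowest library of its group for 50 of 54 members among tumors of Fah-/- recipients, where 33.6% of all genes were lowest, and the highest for 50 of 54 among Hdac3-/- tumors, where 37.3% of all genes were highest. Without the 2 libraries that hold Y-linked transcripts, a check added after the data were seen, 6 members were called in tumors of Fah-/- recipients and 0 in Hdac3-/- tumors, when 3.99% and 0% of all genes were called. Hepatocyte markers summed to 28520 to 58900 CPM in tumors of Fah-/- recipients and 33220 to 104300 CPM in Hdac3-/- tumors, against 106800 to 135300 CPM in adjacent tissue, with 2 and 1 of 10 markers lower. Macrophage markers were lower in 3 of 8 and in 1 of 8. Bile duct and progenitor markers summed to 188 to 408 CPM in tumors of Fah-/- recipients and 136 to 241 CPM in Hdac3-/- tumors, against 82.4 to 111 CPM in adjacent tissue, with 1 of 7 higher in each. Stellate and fibroblast markers summed to 26.8 to 283 CPM, 238 to 413 CPM and 211 to 230 CPM in the same groups, with 2 of 8 lower in tumors of Fah-/- recipients and 1 of 8 higher in Hdac3-/- tumors. The part of these cell types was not tested.

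Between tumors of Fah-/- recipients and Hdac3-/- tumors no member was called with edgeR's quasi-likelihood test, where 0% of all genes were called, and none with DESeq2. No member passed an unadjusted p under 0.05 either, while 911 genes did. The members' median log2 fold change was 0.66, and 47 of 51 lay above 0, against 51.7% of all genes. Mcm2 differed by 0.68 ± 0.51 (adjusted p = 0.716), Mki67 by 0.69 ± 0.86 (0.82), Cdk1 by 0.38 ± 0.59 (0.853) and Ccnb1 by 0.78 ± 0.67 (0.749). For Ccnd1 the value was 0.99 ± 0.76 (0.716), for Ccne1 0.81 ± 0.79 (0.773), for Pcna 0.14 ± 0.43 (0.928) and for Tk1 0.34 ± 0.35 (0.782). With errors of this size the 2 tumor groups cannot be said to be alike.

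Replication and mitotic members did not keep the same ratio in all groups. The mean log2(CPM + 0.5) of the 17 replication members minus that of the 26 mitotic members was 0.70 to 0.89 in 0d livers and 0.99 to 1.89 in WT livers. At the later days it was 0.41 to 1.68 at 7d, 1.07 to 1.21 at 21d and 0.76 to 1.00 at 50d. It was 1.56 to 1.62 in tumors of Fah-/- recipients, 1.45 to 1.95 in Hdac3-/- tumors and 2.06 to 2.35 in adjacent tissue. All 0d libraries thus lay below all WT libraries, and all tumor libraries below all adjacent libraries. These differences were not tested. Summed CPM showed the same contrast: mitotic members summed to 118 to 141 CPM in 0d livers and 34.5 to 100 CPM in WT livers, while replication members summed to 165 to 179 CPM in 0d livers and 157 to 179 CPM in WT livers. The replication sums include Tk1 and Tyms, which fell. Of the 17 replication members 13 had log2 fold changes above 0 in 0d livers over WT livers, with a median of 0.55.

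**Figure D5:**
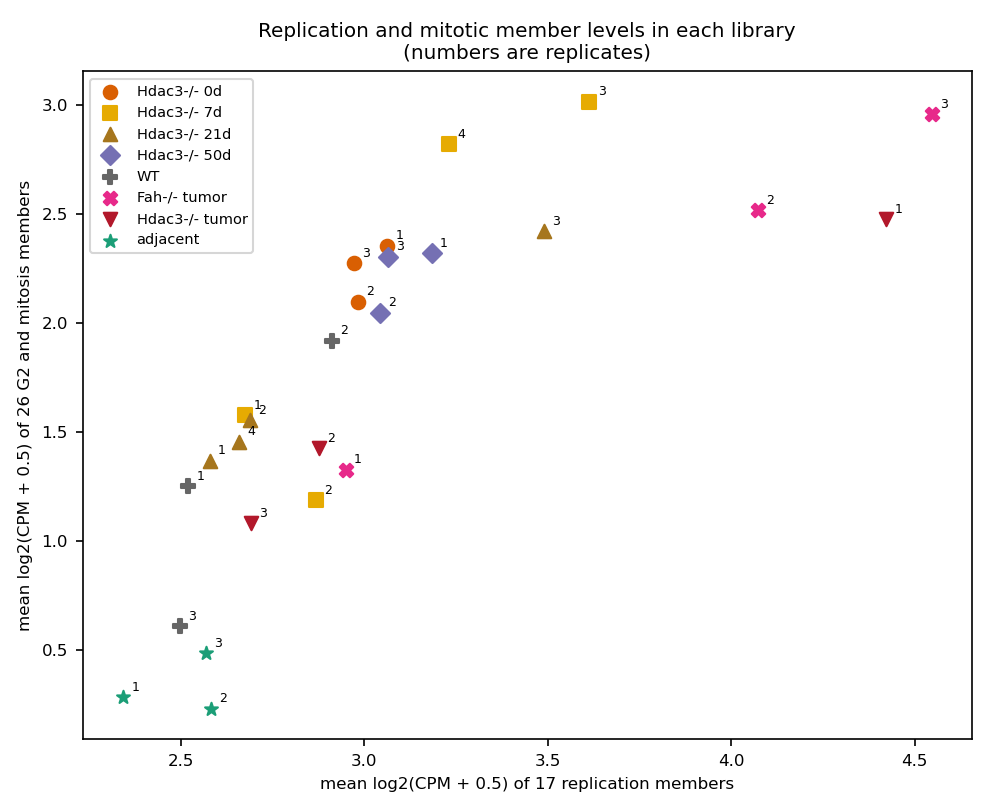
Each point is a library, with the mean log2(CPM + 0.5) of 17 replication members on the x axis and that of 26 mitotic members on the y axis, coloured by group. The 3 adjacent libraries lie lowest, at 0.23 to 0.48 for the mitotic mean, and the 0d libraries at 2.10 to 2.35.

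Genes of the same pathways outside the 54 were also counted. Of 36 further mitotic genes tested, 9 rose and 1 fell in 0d livers over WT livers, among them Ect2, a regulator of cytokinesis (log2 fold change 2.46 ± 0.64, adjusted p = 0.00759), and Ccnf, an F-box cyclin, which fell (-1.64 ± 0.36, 0.00286). Of 30 further replication genes 2 rose and 3 fell. Both shares lie below the 37.2% of all genes called in this comparison. Chaf1a, a histone chaperone subunit, was among those that rose (1.87 ± 0.43, adjusted p = 0.00368). Of 14 pocket proteins, E2F partners and MuvB subunits 2 rose and 3 fell, with E2f3 at 1.09 ± 0.20 (0.000687) and Rb1, the retinoblastoma protein gene, at 0.92 ± 0.23 (0.00601).

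Against 0d livers, Tipin, a fork protection factor, rose at each later day, by 1.24 ± 0.29 at 7d (adjusted p = 0.00617), 1.39 ± 0.29 at 21d (0.0024) and 1.47 ± 0.30 at 50d (0.00277) on the log2 scale. E2f3 fell, with -0.67 ± 0.18 (0.0134), -1.17 ± 0.18 (0.00049) and -0.89 ± 0.20 (0.00439), in the same order of days. Of the 30 replication genes 3 rose and 1 fell at 7d, 5 rose and 3 fell at 21d, and 3 rose and 1 fell at 50d. Of the 36 mitotic genes 1 rose at 7d, 3 fell at 21d and none was called at 50d. None of these counts exceeds the share of all genes called, which was 26.4% at 7d, 31.4% at 21d and 25.6% at 50d.

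In older tissue 16 of 32 further mitotic genes rose and 1 fell in tumors of Fah-/- recipients, and 4 rose and 1 fell in Hdac3-/- tumors. These 32 are the genes of 38 listed that passed the filter on low counts. As with the members, a gene kept only through its tumor values had to lie higher there, so the filter partly fixes these counts. Racgap1, a partner of Ect2 in cytokinesis, rose by 3.82 ± 0.67 (adjusted p = 0.00756) in tumors of Fah-/- recipients and by 2.98 ± 0.66 (0.0227) in Hdac3-/- tumors. Of 30 replication genes 7 rose in tumors of Fah-/- recipients and 2 in Hdac3-/- tumors, and none fell. Over all genes 15.1% were called in tumors of Fah-/- recipients and 10.2% in Hdac3-/- tumors, and the 2 of 30 lie below that. Chaf1a was among them in both, at 2.54 ± 0.49 (0.0112) and 2.34 ± 0.49 (0.0192). Of the 14 pocket proteins, E2F partners and MuvB subunits the gene called in both was Rbl2, a pocket protein, which fell.

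Of 7 inhibitors of CDKs tested, Cdkn1a and Cdkn2b rose in both tumor groups. Over all genes 15.1% were called in tumors of Fah-/- recipients and 10.2% in Hdac3-/- tumors. Cdkn1a, the gene of p21, had 278, 82.7 and 104 CPM in tumors of Fah-/- recipients and 123, 256 and 155 CPM in Hdac3-/- tumors, against 8.81, 1.30 and 1.92 CPM in adjacent tissue. All 6 tumor libraries were far above the highest adjacent library, and the log2 fold changes were 5.24 ± 0.85 (adjusted p = 0.00623) and 5.44 ± 0.85 (0.00778), in the same order of tumors. Without the libraries holding Y-linked transcripts the call in Hdac3-/- tumors was lost (5.12, adjusted p = 0.0746, against 1.44e-12 to 0.0746 over all alternatives). Cdkn2b, the gene of p15, had 3.76, 1.89 and 3.16 CPM in tumors of Fah-/- recipients and 3.12, 7.89 and 5.22 CPM in Hdac3-/- tumors, against 0.297, 0.118 and 0.107 CPM in adjacent tissue (3.95 ± 0.63, 0.00541, and 4.83 ± 0.63, 0.00418). Its groups did not overlap. With adjacent values this low, Cdkn2b was kept for the test only through its tumor values, so its calls add nothing beyond these values. The other 5 inhibitors were not called.

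In young livers Cdkn2b rose in 0d livers over WT livers (3.05 ± 0.78, adjusted p = 0.00682), and at 7d (-2.48 ± 0.66, 0.0131) and 21d (-2.79 ± 0.69, 0.00677) it fell against 0d. Cdkn2c, the gene of p18, rose against 0d at 7d (0.65 ± 0.17, adjusted p = 0.0116), 21d (0.71 ± 0.17, 0.00586) and 50d (0.62 ± 0.18, 0.0192), and Cdkn1c, the gene of p57, fell at 21d (-1.56 ± 0.49, 0.024) and 50d (-2.02 ± 0.55, 0.0139). Of the 6 inhibitors tested, 1 rose in 0d livers over WT livers, and against 0d livers 1 rose and 1 fell at 7d, 1 rose and 2 fell at 21d, and 1 rose and 1 fell at 50d. Over all genes 37.2% were called in 0d livers over WT livers. Against 0d livers the shares were 26.4% at 7d, 31.4% at 21d and 25.6% at 50d. Cdkn1a had 91.2, 75.2 and 85.9 CPM in 0d livers, against 12.5, 20.9 and 90.4 CPM in WT livers. WT replicate 3 lay within the 0d range, and the difference was not called (1.03 ± 0.79, adjusted p = 0.32). Cdkn1a was not called at 7d (-0.97, 0.335), 21d (-1.17, 0.226) or 50d (-0.80, 0.48) against 0d, nor between tumors of Fah-/- recipients and Hdac3-/- tumors (-0.21, 0.936).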

How the data were processed

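Per the labels' protocols, Trizol was used for RNA extraction and TruSeq for libraries. HISAT, Bowtie2 and build mm10 are named in the submitters' processing notes; versions, the counting tool and strand use are not given in the sources used here. Each deposited file lists an expected count, an estimate of reads that need not be whole (20.1 to 21.8% were not), per the file headers. Per the file headers it also lists FPKM, the authors' values per kilobase of gene and per library size. A gene not listed in a library was taken as 0.

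Entrez IDs gave symbols for 19573 genes, RefSeq accessions for 11, and 54 had none. Counts were rounded, filtered with filterByExpr, TMM-scaled and tested 2-sided with the quasi-likelihood test of edgeR 4.0.16 (R 4.3.3, limma 3.58.1) with Benjamini-Hochberg adjustment at 0.05, in 1 fit of 17 young livers (13617 genes) and 1 of 9 older tissues (13187 genes), with no covariate besides group. CPM shown are TMM-scaled over 26 libraries. The SE of a log2 fold change was derived from the test, as its absolute value divided by the square root of the F statistic. The procedure was tested on simulated data. Alternatives were DESeq2 1.42.0, other scalings, no filter, other sample sets, a block on replicate number and omission of single libraries. Figures and promoter searches used matplotlib 3.10.9, scipy 1.17.1, pandas 2.3.3 and numpy 2.4.6 in Python 3.11.15.

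The members, lists and tests were chosen with earlier results of these data known. Members called in a comparison are named, and Mki67, Cdk1, Ccnb1, Mcm2, Pcna, Tk1, Ccnd1 and Ccne1 in each. Of other lists at most 4 genes with the smallest adjusted p are named, with Cdkn1a throughout; Afmid and Gse1 were added as neighbours after values were seen. A further item is not reported here.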

Additional observations from a re-analysis of the deposited data

Results flagged for a closer look

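In 21d livers, replicate 3 stood above the other 3 libraries of its group for 11 of 110 genes and groups of 4 libraries examined, with a gap to the next library that is a larger share of the group's range than Dixon's 95% critical value (chance exceeds it in about 1 in 20 groups). The flagged genes included Ccnd1 at 79.7 CPM (others 35.6 to 41.9), Mcm2 at 14.3 CPM (4.48 to 5.92), Mcm3 at 11.6 CPM (5.19 to 6.04) and Mcm6 at 11.3 CPM (2.09 to 3.59). Cdc6 stood at 2.65 CPM (0.237 to 0.399), Rrm1 at 18.0 CPM (8.89 to 10.2), Top2a at 8.91 CPM (4.38 to 4.89) and Ccnb1 at 5.51 CPM (1.25 to 1.30). Birc5 was at 7.66 CPM (2.78 to 3.29), Tpx2 at 8.83 CPM (1.81 to 2.54) and Cdkn1a at 89.1 CPM (14.7 to 25.9). In the same library stellate and fibroblast markers summed to 739 CPM, against 138 to 306 CPM in the other 3, and neutrophil markers to 17.9 CPM, against 70.6 to 110 CPM. The part of these cells was not tested.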

How the results depend on the processing

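The number of members called stayed within 1.5 times the reported number in 107 of 139 alternative counts, and no called member changed sign in any alternative. The 139 include the 4 comparisons without calls, where a count that stayed at 0 was taken as unchanged. Among the comparisons with calls a smaller share stayed within that limit. The number of members called moved further as follows. For 0d against WT it was 24 with only the groups compared and 7 with all 26 libraries in 1 fit, against 11 reported, while the share of all genes called was 45.3% and 26.3%, against 37.2%. For 21d against 0d the same settings gave 13 and 5, against 8, with 40.9% and 19.9% of all genes, against 31.4%. With only the groups compared it was 8 for 50d against 0d, against 4 (43.5% of all genes, against 25.6%), and 1 for 50d against 21d, against 0. DESeq2 gave 1 for 50d against 7d, against 0. For Hdac3-/- tumors against adjacent tissue it was 21 with DESeq2, 17 with only the groups compared, 30 with all 26 libraries, 2 with the replicate block and 0 without libraries holding Y-linked transcripts, against 9 (12.5%, 19.2%, 28.1%, 7.79% and 0% of all genes, against 10.2%). For tumors of Fah-/- recipients against adjacent tissue it was 42 with all 26 libraries, 17 with the replicate block and 6 without libraries holding Y-linked transcripts, against 27 (34.3%, 12.5% and 3.99%, against 15.1%). The cause was not tested. Leaving out single libraries gave 6 to 19 (0d against WT), 4 to 6 (7d against 0d), 4 to 14 (21d against 0d), 4 to 4 (50d against 0d), 0 to 6 (Hdac3-/- tumors) and 4 to 32 (tumors of Fah-/- recipients), and 0 to 0 in the 4 comparisons without calls. Scaling by library totals shifted the all-gene median log2 fold change to 0.30 for 0d against WT, -0.13, -0.21 and -0.17 for 7d, 21d and 50d against 0d, and 0.26 and 0.20 for tumors of Fah-/- recipients and Hdac3-/- tumors against adjacent tissue. It split the calls of 21d against 0d into 3 higher and 6 lower. Equal replicate numbers share only a number: deviations of equal numbers correlated at -0.30 to 0.41, and in the young livers the replicate block gave 9, 5, 8 and 4 members called for 0d against WT and for 7d, 21d and 50d against 0d. At these depths many mitotic members had under 1 CPM in WT or adjacent tissue, so small differences in them were not detectable.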
